A study of Mus musculus with 2 samples.

Results

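Nnat, Mcts2, Nap1l5, Zrsr1, Inpp5f and Peg13 are imprinted mouse genes that stand alone or inside a larger host gene, rather than in a long imprinted cluster. Their CpG methylation was read in peripheral blood of wild-type (WT) mice and of mice in which the epithelial cells of the kidney proximal tubule express I-PpoI, an intron-encoded nuclease that cuts both DNA strands. Every CpG cytosine from 3 kb before to 3 kb after each gene was taken if both libraries listed it on the same strand with at least 10 reads. All 6 genes had such cytosines, 681 in all at 356 CpG positions, and they are 6 of 31037 gene regions measured in the same way. There was 1 library per group, so no difference below has a replicate check. The age and strain, the number of mice behind a library, any allele the WT mice carry and the promoter that drives I-PpoI are not known from the labels. DNA was digested with MspI, which cuts at CCGG, and treated with bisulfite, so that an unmethylated C is read as T (reduced representation bisulfite sequencing).

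Imprinted genes are expressed from 1 parental copy. At most of them a stretch of CpGs receives methylation in the egg and keeps it on the maternal copy in all tissues, so that blood cells carry a methylated and an unmethylated copy side by side and the measured level lies between the extremes. Mcts2, Nap1l5 and Zrsr1 are retrogenes, reverse-transcribed copies of other genes that landed in an intron of a host gene and are active on the paternal copy. Mcts2 came from the X-linked gene Mcts1, a translation factor, and Zrsr1 from the X-linked gene Zrsr2, a splicing factor. Nap1l5 belongs to a family of histone chaperones. Nnat encodes neuronatin, a small membrane protein of brain and endocrine cells. Peg13 gives a long noncoding RNA from inside Trappc9. Inpp5f encodes an inositol phosphatase, and only a short variant that starts inside the gene is imprinted.

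The RefSeq promoter windows of 3 of these genes, 250 bases before to 50 after the start in GRCm38.p6, are printed to set the almost fully methylated Mcts2 window beside the partly methylated ones of Nnat and Zrsr1, together with a host gene window that overlaps Zrsr1. They run 5′ to 3′ in lower case on the strand of the named gene, and capitals mark the CpGs that both libraries measured. The Mcts2 window lies at chr2:152686898-152687197 on the plus strand, the Nnat window at chr2:157559828-157560127 on the plus strand and the Zrsr1 window at chr11:22971755-22972054 on the plus strand. The last one, chr11:22972817-22973116 on the minus strand, is the second RefSeq start of the host gene Commd1, and it holds all 7 Zrsr1 cytosines that were called lower (below).
Mcts2: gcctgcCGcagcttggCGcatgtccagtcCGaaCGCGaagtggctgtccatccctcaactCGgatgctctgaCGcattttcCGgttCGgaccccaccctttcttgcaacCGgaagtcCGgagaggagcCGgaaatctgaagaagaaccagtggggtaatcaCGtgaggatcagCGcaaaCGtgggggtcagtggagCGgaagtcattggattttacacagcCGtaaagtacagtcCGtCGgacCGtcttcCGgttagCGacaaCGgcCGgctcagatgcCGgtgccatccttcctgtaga
Nnat: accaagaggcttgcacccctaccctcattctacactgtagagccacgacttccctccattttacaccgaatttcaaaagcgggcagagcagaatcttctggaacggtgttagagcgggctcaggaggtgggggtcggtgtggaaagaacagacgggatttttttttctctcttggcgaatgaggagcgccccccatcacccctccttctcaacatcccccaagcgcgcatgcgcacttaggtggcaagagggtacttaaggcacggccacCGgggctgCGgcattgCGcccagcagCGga
Zrsr1: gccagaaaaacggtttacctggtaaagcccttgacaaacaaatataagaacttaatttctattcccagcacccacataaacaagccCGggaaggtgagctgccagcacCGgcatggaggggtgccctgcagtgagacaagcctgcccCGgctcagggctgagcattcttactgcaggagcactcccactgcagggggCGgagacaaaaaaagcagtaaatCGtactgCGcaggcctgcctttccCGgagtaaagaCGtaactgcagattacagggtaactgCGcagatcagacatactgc
Commd1 start inside Zrsr1: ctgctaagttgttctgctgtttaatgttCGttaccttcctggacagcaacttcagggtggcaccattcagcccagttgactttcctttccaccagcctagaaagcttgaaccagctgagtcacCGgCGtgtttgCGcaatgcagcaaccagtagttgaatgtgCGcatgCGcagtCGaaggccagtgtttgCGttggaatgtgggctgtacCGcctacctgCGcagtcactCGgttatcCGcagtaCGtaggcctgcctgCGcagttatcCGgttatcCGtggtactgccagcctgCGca
All 25 CpGs of the Mcts2 window were measured. In the Nnat window 4 of 17 CpGs were measured, all just after the start. In the Zrsr1 window 9 of 10 were measured, and in the Commd1 window 17 of 17. The Nap1l5 window, chr6:58907077-58907376 on the minus strand, holds 17 CpGs of which 0 were measured. The Inpp5f window, chr7:128611115-128611414 on the plus strand, holds 15, of which 4 were measured. Peg13 had no entry in the promoter table. The hexamer TGCCGC, which the imprint-keeping zinc finger protein ZFP57 binds when methylated, was searched on both strands. It occurred 1 time in the Mcts2 window, 1 time in the Nnat window and 2 times in the Nap1l5 window, and it was not found in the Zrsr1, Inpp5f or inner Commd1 windows. Of all 32585 promoter windows, 11.7% hold it, and a match describes the letters only.

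In WT 3569384 cytosines were listed, at a median of 53 reads, and in I-PpoI 3141563, at a median of 49. Both listed 3030488 cytosines on the autosomes and X, and all of these entered the tests. Partly methylated DNA was lower in I-PpoI across the genome, so each count for the 6 genes is set against the share of all features called by the same rule. Levels at marker genes also differed between the libraries. Of 4 measured neutrophil gene regions, 3 were called lower in I-PpoI, namely Mpo, Ctsg and Camp, by 21.3 to 26.4 percentage points. Of all gene regions 2.31% were called lower. Camp had 6 cytosines and was not called by the scaled test (below), and Elane, at -8.85 points, was not called. None of 4 T cell, 3 B cell, 5 pan-leukocyte, 4 kidney tubule and 3 neuron regions was called. Of their partly methylated stretches (defined below), 1 of 1 pan-leukocyte, 1 of 1 kidney tubule, 2 of 10 neuron and 0 of 1 B cell were called lower, beside 28.1% of all. At the starts of the leukocyte genes Coro1a and Vav1 the level was 5.97% and 5.16% in WT and 5.25% and 3.35% in I-PpoI. Whether the mix of blood cells had a part in the differences below was not tested.

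Of the 6 gene regions, 5 had a lower mean level in I-PpoI and Mcts2 had a higher one. The mean over cytosines went from 45.1% in WT to 32.5% in I-PpoI at Nnat, from 59.7% to 52.0% at Nap1l5, from 39.8% to 30.8% at Zrsr1, from 40.8% to 37.8% at Peg13, from 11.7% to 11.0% at Inpp5f and from 93.4% to 97.3% at Mcts2. Only the Nnat region was called, at an adjusted p under 0.01 in a Cochran-Mantel-Haenszel test and a difference of at least 10 points. Zrsr1, Nap1l5, Peg13 and Mcts2 passed the p but not the size. That test compares reads within each cytosine of the 2 libraries, and so compares these libraries and not the conditions. It called 2.31% of all gene regions lower and 0.19% higher. Among the 5469 regions whose WT level lay from 30% to 60%, as at Nnat, Nap1l5, Zrsr1 and Peg13, it called 2.29% lower and 0.238% higher. Scaled by the spread between cytosines, the test still called the Nnat region and none of the other 5, beside 0.815% of all regions lower and 0.029% higher. The median difference was -5.31 points over the 6 regions and -1.10 points over all regions.

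**Figure D1:**
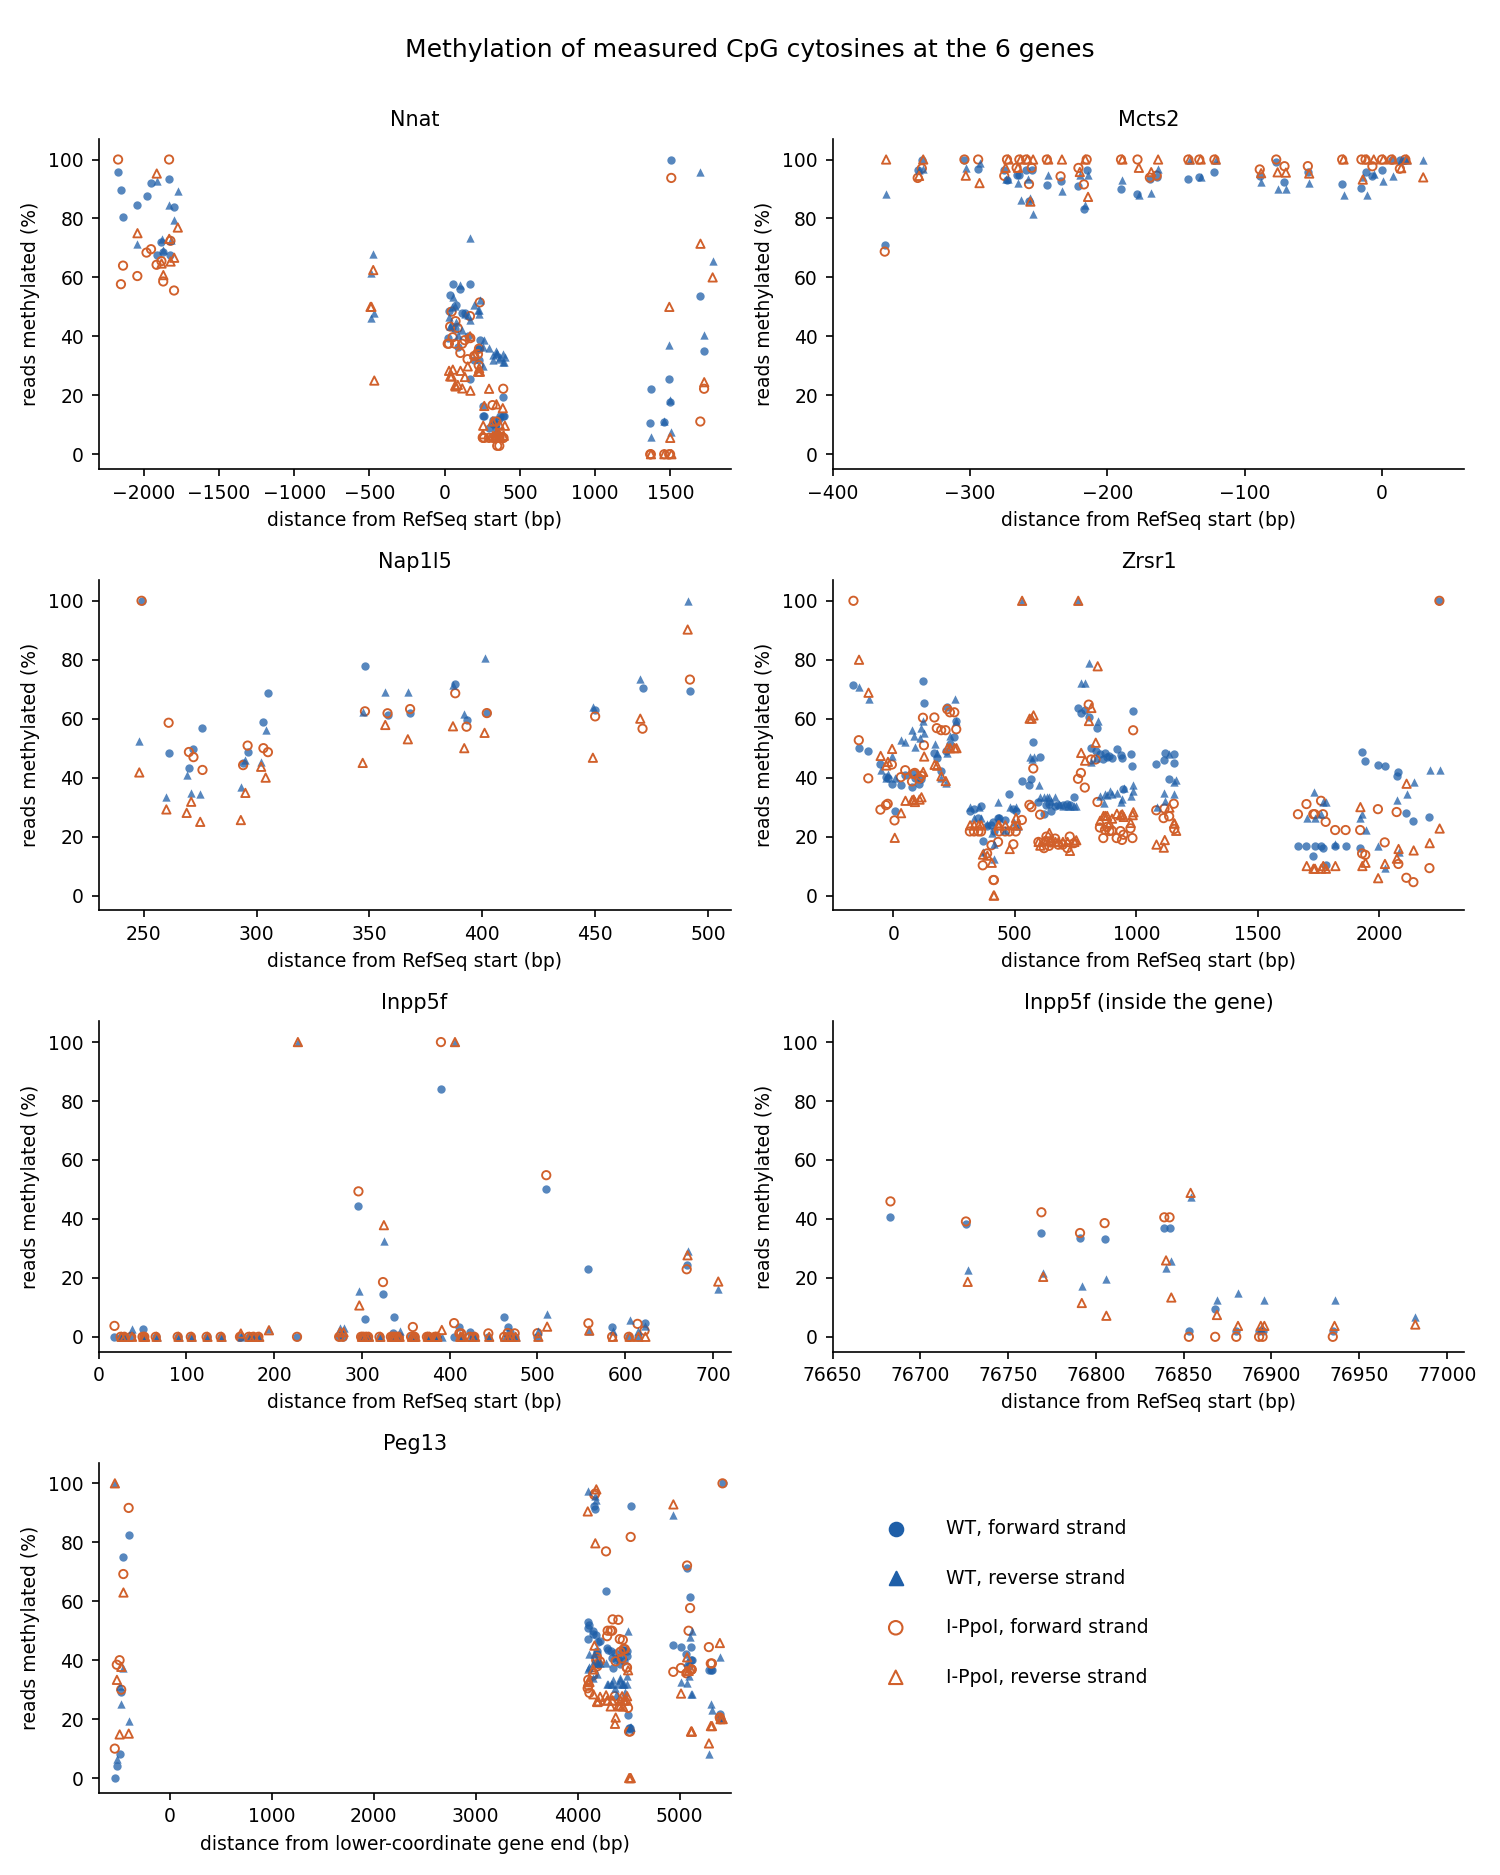
Methylation level of measured CpG cytosines (y axis, percent) by distance from the gene's start (x axis, bp; for Peg13 from the gene end with the lower coordinate), with filled blue marks for WT, open orange marks for I-PpoI, circles for the forward and triangles for the reverse strand; Inpp5f has a panel for its start and one inside the gene, and a few cytosines farther out are not drawn. Nnat, Nap1l5, Zrsr1 and Peg13 lie mostly between 20% and 80%, Mcts2 near the top, and Inpp5f near 0 at its start and partly methylated 76683 bp downstream.

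Partly methylated stretches were then followed, runs of at least 5 CpG positions whose mean over both libraries lay from 20% to 80%, with neighbours at most 500 bp apart. The 2 parental copies were not told apart, so whether a stretch is an imprinted mark was not tested. The 6 genes held 10 such stretches: 4 at Peg13, 3 at Zrsr1, 1 each at Nnat, Nap1l5 and Inpp5f, and 0 at Mcts2. In I-PpoI the mean was lower in 9 of the 10, and it was lower in 73.8% of all 6104 stretches of the genome. Of the 10, 3 (30.0%) were called lower, beside 28.1% of all. One stretch, just outside the Peg13 gene end with the lower coordinate, was called higher, beside 3.98% of all. The median difference was -6.20 points over the 10 stretches and -5.62 points over all, whose lower and upper quartiles were -12.7 and 0.343 points. Of the stretches with at least 20 CpG positions, 104 in the genome, 38.5% were called lower and 1.92% higher. At the 6 genes the stretches of that size were those of Nnat, of Zrsr1 from -142 and 431 bp and of Peg13 from 4182 bp. Of these, Nnat and Zrsr1 from 431 bp were called lower and the others were not called. Over stretches of all sizes, the 30.0% called lower at the 6 genes was thus near the 28.1% of partly methylated DNA elsewhere. When the test was scaled by the spread between the cytosines of a stretch, the same 3 were called lower and the Peg13 one was not called, beside 12.8% lower and 1.13% higher over the genome.

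**Figure D2:**
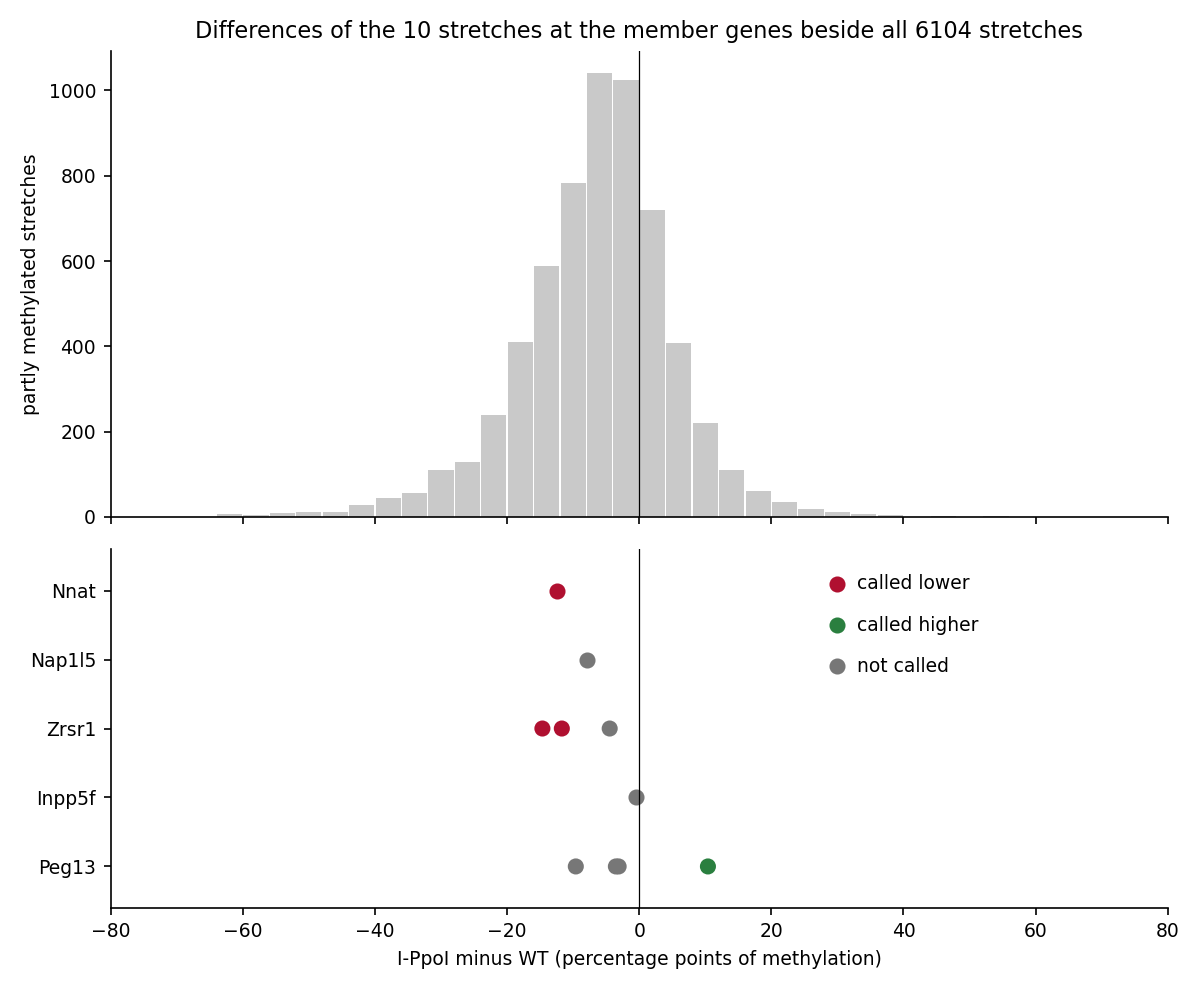
The upper panel counts all 6104 partly methylated stretches (y axis) by the difference I-PpoI minus WT (x axis, percentage points), and the lower panel places the 10 stretches of the 6 genes on the same axis, coloured by call. The members run from -14.7 points at Zrsr1, with 20.3% of all stretches lower still, to 10.4 points at Peg13, with 94.6% of all stretches below it.

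At single cytosines, where the call needed an adjusted p under 0.01 in Fisher's exact test over all shared cytosines and a difference of at least 25 points, 16 of the 681 (2.35%) were called lower and 1 higher. Over all 3030488 cytosines the rule called 0.437% lower and 0.0594% higher. Restricted to cytosines with a mean from 20% to 80%, 14 of 391 (3.58%) were called lower at the 6 genes and 2.96% over the genome, and 1 was called higher, beside 0.385%. The called cytosines were 8 at Nnat, 7 at Zrsr1 and 1 at Nap1l5, with the 1 called higher at Peg13. The mean over these 391 cytosines went from 43.4% in WT to 35.4% in I-PpoI, with a lower level at 74.4%. Over all 367647 such cytosines it went from 54.0% to 48.0%, with 61.3% lower.

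Nnat sits on chromosome 2 inside Blcap, and 106 of its cytosines were measured, of which 91 were lower in I-PpoI and 15 higher. A stretch of 23 CpG positions ran from -494 to 234 bp around the start, with no measured cytosine between -468 and 20 bp. Its 4 cytosines before this gap were all on the reverse strand, at medians of 25.5 reads in WT and 16 in I-PpoI. Over the whole stretch the mean was 47.2% ± 9.37 in WT and 34.8% ± 9.47 in I-PpoI (SD over 41 cytosines of 1 library, not over replicates). Nnat methylation thus fell by 12.4 points there, at an adjusted p of 4.1e-24. With reads summed over cytosines, the pooled share methylated was 47.7% of 2591 in WT (Wilson 95% interval 45.7% to 49.6%) and 32.6% of 2291 in I-PpoI (30.7% to 34.5%). A read counts at each cytosine it spans, so these intervals are too narrow. Cytosines read from the forward and reverse strands gave unlike differences. From 20 to 234 bp after the start, the forward strand went from 43.3% in WT to 39.3% in I-PpoI and the reverse strand from 49.5% to 27.5%. From 253 to 400 bp, just beyond the stretch, the forward strand was at 12.1% and 7.60% and the reverse strand at 33.7% and 10.5%. There the WT reverse strand had a median of 155 reads and the I-PpoI one 60, against 58.5 and 35.5 on the forward strand. With the deeper library thinned at each cytosine to the reads of the other, the difference was -13.8 points for the Nnat region and -12.7 points for its stretch, and both were still called. The count of cytosines called lower over the 6 genes was then 10 in place of 16.

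All 8 called Nnat cytosines were on the reverse strand, between 70 and 364 bp after the start. The largest difference was at 169 bp, base 157560247, which was 73.3% methylated over 86 reads in WT and 40.0% over 65 reads in I-PpoI. At 105 bp the level was 57.3% in WT and 28.3% in I-PpoI, and at 340 bp 34.0% and 6.56%. The forward cytosines of the same 8 CpGs were lower as well, by values from -21.8 to -3.37 points, and none of those was called. Farther out, the mean from -2171 to -1774 bp was 80.8% in WT and 70.7% in I-PpoI over 20 cytosines. It was 24.3% and 13.6% between 1366 and 1507 bp after the start, and 58.1% and 37.8% between 1699 and 1781 bp. The Nnat region carried 0.651 times as many reads in I-PpoI as in WT. With forward cytosines alone the Nnat region difference was -8.20 points and that of its stretch -4.01, and neither was called. The region was also not called with 5 kb on each side (-6.40 points), nor the stretch from CpG positions at least 150 bp apart (-5.89 points). That spacing left only the cytosines at -493, 20, 170 and 171 bp in the stretch.

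Zrsr1 lies on chromosome 11 in Commd1, and it had the most measured cytosines of the 6, with 206, of which 155 were lower in I-PpoI and 47 higher. It held 3 stretches. Around the start, from -142 to 362 bp, the mean was 46.2% ± 11.8 in WT and 41.8% ± 13.8 in I-PpoI (SD over 56 cytosines), too small a difference to be called. From 431 to 1164 bp, over 51 CpG positions, it was 40.8% ± 14.3 and 29.1% ± 16.6 (99 cytosines). This stretch fell by 11.7 points, at an adjusted p of 3.1e-74, and 88 of its 99 cytosines were lower. From 1921 to 2248 bp, over 11 CpG positions, it was 34.9% ± 18.5 and 20.3% ± 19.8 (22 cytosines), and it fell by 14.7 points, at an adjusted p of 3.6e-25. Zrsr1 reads were about as many in both libraries over the first 2 stretches, with I-PpoI at 1.06 and 1.09 times WT, and fewer in the last, at 0.580 times. The stretch from 431 to 1164 bp was read by 7421 WT and 8073 I-PpoI reads, summed over cytosines.

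The 7 called Zrsr1 cytosines lay close together on the forward strand, 864 to 976 bp after the start. They were read 122 to 125 times in WT and 157 to 160 times in I-PpoI, and their levels ran from 46.3% to 49.6% in WT and from 18.9% to 22.8% in I-PpoI. The ranges do not overlap, but these cytosines were picked for a large difference and had similar WT levels, so that gap follows from the call. Cytosines this close also share reads and are not 7 separate measurements. The largest difference was at 919 bp, base 22972924, with 49.6% in WT and 19.5% in I-PpoI. On the reverse strand of the same 7 CpGs the levels were 31.3% to 35.6% in WT and 24.4% to 27.7% in I-PpoI, lower at 7 of 7. These 7 CpGs lie in the inner Commd1 window printed above, whose mean was 42.6% in WT and 30.0% in I-PpoI over 34 cytosines. At the outer Commd1 start, chr11:22982235-22982534, it was 6.90% and 6.50%. Reverse cytosines alone gave -7.88 points for the stretch from 431 bp, which then was not called. The one from 1921 bp gave -9.19 points and was not called when the bounds were set at 10% and 90%.

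Nap1l5 was measured in 36 cytosines of chromosome 6, between 248 and 492 bp after its start inside Herc3. In its stretch of 17 CpG positions, the mean was 58.2% ± 14.9 in WT and 50.3% ± 14.6 in I-PpoI (SD over 34 cytosines). The difference of -7.93 points had an adjusted p of 1.2e-13 and did not reach 10 points. Again the strands were unlike: the forward strand was 61.6% methylated in WT and 57.9% in I-PpoI, the reverse strand 54.8% and 42.7%. With reverse cytosines alone the stretch was called, at -12.2 points. It was also called from reads pooled over cytosines, at -10.2 points, and from CpG positions at least 150 bp apart, at -18.2 points. That spacing left only the CpG at 305 bp, at -20.1 and -16.25 points on its strands. The value of -18.2 points thus describes that CpG and not the stretch. One Nap1l5 cytosine was called, at 401 bp on the reverse strand, base 58906725, with 80.7% over 187 reads in WT and 55.2% over 154 reads in I-PpoI. Its partner on the forward strand was at 61.8% and 61.9%.

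Peg13, on chromosome 15 inside Trappc9, had 115 measured cytosines, of which 72 were lower in I-PpoI and 39 higher. The promoter table does not give its start, so distances are from the gene end with the lower coordinate. Near the other end 3 stretches followed each other. From 4098 to 4165 bp the mean was 51.7% in WT and 42.1% in I-PpoI over 14 cytosines, a difference of -9.60 points with an adjusted p of 0.00010. From 4182 to 4495 bp, with 23 CpG positions the longest at this gene, it was 39.7% and 36.6% over 46 cytosines, with an adjusted p of 0.00022. Between 4520 and 5422 bp it was 40.9% and 37.4% over 32 cytosines, with an adjusted p of 0.18. None of the 3 was called. In the longest, the forward strand was at 42.5% and 44.0% and the reverse strand at 36.8% and 29.2%, so the strands differed in sign. The stretch from 4098 bp was called from forward cytosines alone, at -14.8 points, and with reads thinned to equal depth, at -10.1 points.

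Peg13 also held the only stretch called higher, 6 CpG positions from -542 to -405 bp. Its mean was 34.9% ± 33.3 in WT and 45.3% ± 29.6 in I-PpoI (SD over 12 cytosines), higher by 10.4 points, with an adjusted p of 6.2e-05. Its cytosines ranged in WT from 0 at -542 bp to 100% on the opposite strand of the same CpG, with 47 and 18 reads. The 1 cytosine called higher lay at -522 bp, base 72805080, with 4.17% over 48 reads in WT and 38.5% over 39 reads in I-PpoI. The opposite strand of this CpG was at 6.35% and 33.3%, so both strands were higher by similar amounts. At -495 bp the strands went opposite ways, from 8.33% to 40.0% and from 31.3% to 14.8%. The stretch was not called with the scaled test, with reverse cytosines alone (7.41 points), with reads thinned to equal depth (9.99 points) or from CpG positions at least 150 bp apart (5.0 points). That spacing left only the CpG at -542 bp.

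Inpp5f, on chromosome 7 with no host gene, showed 3 states of methylation along its length. From 18 to 706 bp after the start, 113 cytosines had a mean of 5.42% in WT and 5.18% in I-PpoI. Few cytosines carry that mean: of all 145 at this gene, 78 were at 0 in WT and 89 in I-PpoI. Some of its CpGs had unlike strands in both libraries, such as the one with 100% at 227 bp on the reverse strand and 0 on the forward. At 55448 bp, inside the gene, 4 cytosines were at 96.5% and 95.4%. The partly methylated stretch lay from 76683 to 76854 bp, with 8 CpG positions. There the mean was 28.9% ± 11.5 in WT and 28.5% ± 15.6 in I-PpoI (SD over 15 cytosines), a difference of -0.423 points. Its adjusted p was 0.93, and the pooled share of methylated reads differed by 0.412 points with a Newcombe 95% interval from -3.58 to 4.51. That interval is too narrow, since a read counts at each cytosine it spans. The forward strand was at 32.1% and 35.3%, the reverse strand at 25.4% and 20.8%. The best covered cytosine, at 76791 bp, base 128688156, was 33.6% methylated over 131 reads in WT and 35.2% over 71 in I-PpoI. The reads over this stretch in I-PpoI were 0.525 times those in WT. Just beyond it, from 76868 to 76982 bp, the level dropped to 3.42% and 0 on the forward strand and to 10.4% and 4.40% on the reverse strand. Of the 145 Inpp5f cytosines 0 were called.

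**Figure D3:**
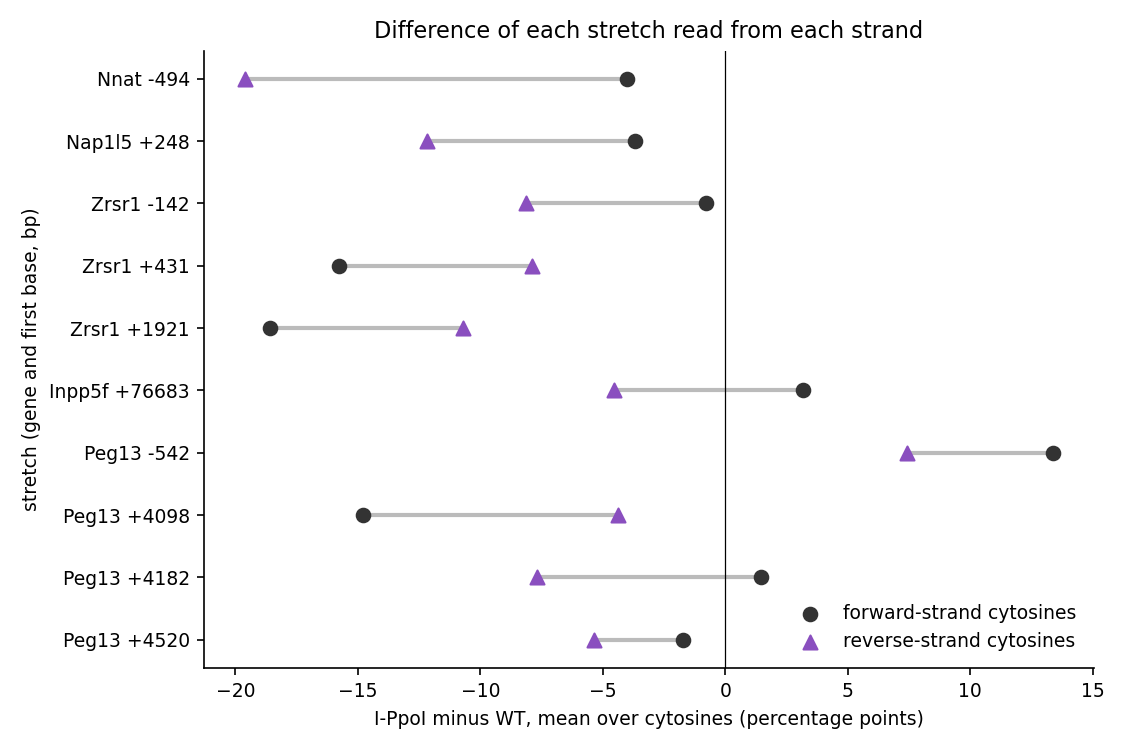
Difference I-PpoI minus WT (x axis, percentage points) of each of the 10 stretches (y axis, gene and first base in bp) from forward-strand cytosines (black circles) and from reverse-strand cytosines (purple triangles). The strands of the Nnat stretch lie at -4.01 and -19.6 points, and at Inpp5f and the Peg13 stretch from 4182 bp they lie on opposite sides of 0.

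Both strands of a CpG in RRBS are read from separate strands of DNA, so how far they disagree is a measure of the spread within a library. At partly methylated CpGs of the 6 genes the median absolute difference between strands was 11.3 points in WT and 12.2 points in I-PpoI, over 203 CpGs. Over all 214024 such CpGs it was 26.7 and 29.3 points. The median absolute difference between libraries on the same strand was 10.2 points at the 6 genes and 11.5 points over the genome. At these genes a typical difference between the libraries was about as large as one between the strands of a CpG in 1 library. These medians ignore sign, so they cannot tell scatter from a shift in 1 direction. The level was lower in I-PpoI at 74.4% of partly methylated cytosines of the 6 genes and at 61.3% of those over the genome.

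Mcts2, on chromosome 2 inside H13, did not show the partly methylated state that its imprint would give. Its 73 cytosines, from -362 to 30 bp around the start, had a mean of 93.4% ± 5.09 in WT and 97.3% ± 4.62 in I-PpoI (SD over cytosines). In WT the levels ran from 70.9% to 100%, with a median of 94.1%, and in I-PpoI from 68.8% to 100%. In WT 57 cytosines were at 90% or more and 10 at 100%, and in I-PpoI 70 and 39. The level was higher in I-PpoI at 54 cytosines, lower at 13 and equal at 6. The difference of 3.91 points had an adjusted p of 1.1e-22 and was too small to be called. Pooled over reads, each counted at every cytosine it spans, it was 4.53 points (Newcombe 95% interval 3.76 to 5.29, too narrow for that reason). The forward and reverse strands differed by 3.40 and 4.41 points, so both were higher. Reads over Mcts2 in I-PpoI were 0.614 times those in WT.

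The Mcts2 promoter window printed above was 93.7% methylated in WT and 98.0% in I-PpoI over 49 cytosines. Among the 8543 promoter windows with at least 20 measured cytosines, 98.1% were under 20% in WT, 1.52% lay from 20% to 80%, and 26 (0.304%) were at 90% or more. In I-PpoI 27 were at 90% or more. By contrast, the Zrsr1 window was 46.7% methylated in WT and 45.5% in I-PpoI, the 4 CpGs of the Nnat window 46.5% and 35.4%, and the 4 of the Inpp5f window 0.366% and 0.529%. So the windows of these genes held an almost full, a partial and an almost absent methylation, each in both libraries.

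**Figure D4:**
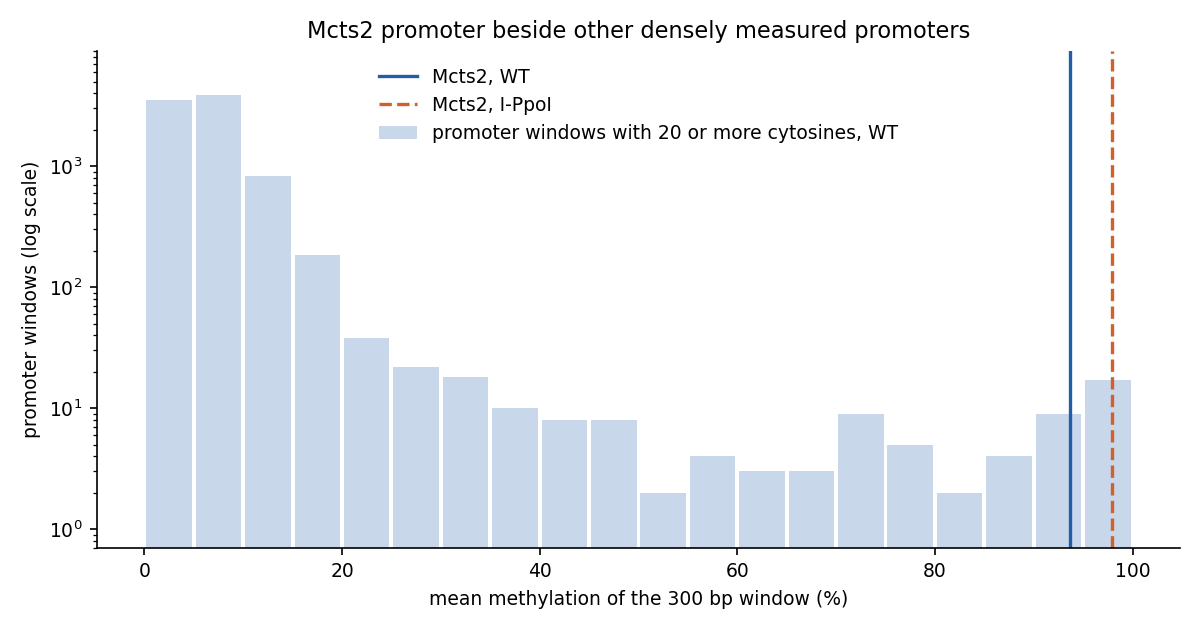
Number of 300 bp promoter windows with at least 20 measured cytosines (y axis, log scale) by their mean methylation in WT (x axis, percent), with vertical lines at the Mcts2 window in WT (solid) and I-PpoI (dashed). Mcts2 stands at 93.7% and 98.0%, while 98.1% of the windows are under 20%.

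The host genes were read for comparison, and their regions contain those of the members. Of 5 host regions 0 were called, 4 had a lower mean in I-PpoI, and their median difference was -2.84 points. Near its own start Blcap, the host of Nnat, was 5.12% methylated in WT and 4.55% in I-PpoI, and H13, the host of Mcts2, 2.86% and 3.31%. Commd1, whose inner start lies within the Zrsr1 region, was at 29.1% and 20.7% over 160 cytosines. The X-linked genes from which 2 of the retrogenes came were low, as Blcap and H13 were. Mcts1 was at 11.5% and 9.72% over 9 cytosines, and the start of Zrsr2 at 1.05% and 1.49%. So the start of Mcts2 was nearly fully methylated and that of Mcts1 mostly unmethylated in the same blood DNA. Whether reads of another copy of the sequence were placed at Mcts2 was not tested, since the reads and a genome were not used here. Of 12 other imprinted gene regions 12 had a lower mean in I-PpoI, with a median of -6.69 points, beside -1.10 points over all regions. Of these 12, 2 were called lower (beside 2.31% of all regions), Mest (-14.0 points), an imprinted hydrolase gene, and H19 (-10.5 points), an imprinted noncoding RNA. Of the 32 partly methylated stretches of the 12 regions, 15 were called lower and 0 higher, beside 28.1% and 3.98% of all stretches. Of 9 regions of genes that set or protect imprints, such as Zfp57, Trim28 and Dnmt1, 0 were called, with a median of -0.676 points. A lower mean in I-PpoI was found in all 9 of them. The same held for all 5 pan-leukocyte, 4 T cell, 4 neutrophil, 4 kidney tubule and 3 neuron regions. It held for 1 of 3 B cell and 1 of 2 X-linked parent regions. The direction alone was thus not particular to imprinted genes.

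Some cytosines of the 6 genes were listed in a single library, 61 in WT alone and 6 in I-PpoI alone, and entered no test. Those listed in WT alone had mean WT levels of 96.1% at Inpp5f (23 cytosines), 87.3% at Mcts2 (13), 84.6% at Nnat (18), 86.1% at Nap1l5 (2) and 75.7% at Zrsr1 (4), and the 1 at Peg13 was at 50%. Over the genome WT also listed more cytosines than I-PpoI, 3569384 beside 3141563, with 3030488 on the autosomes and X in both. The counts of 61 and 6 are therefore not read as a trait of these genes.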

How the data were processed

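Blood DNA of WT and I-PpoI mice was measured by RRBS in 2 libraries, 1 per group, with the Zymo-Seq kit that the labels' protocols name. The submitters' processing notes name methylKit without a version. For the aligner, build, trimming and duplicate removal, the choice is not given in the sources used here. The deposited files list each CpG cytosine, per the file headers, with its coverage, a count of reads, and the percent of reads with C and with T. The smallest deposited coverage was 10 reads, and coverage times percent C was a whole count, within 0.001, at 100% of cytosines. Coverage summed over cytosines to 245819308 reads for WT and to 203696298 for I-PpoI. The build was read from the data: of 429418 listed cytosines in RefSeq promoter windows of GRCm38.p6, 429170 (99.9%) fell on a CG. Gene positions and sequences are from RefSeq tables of that assembly, which carry no exons, so exon, intron and UTR status is not given.

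Methylated reads were coverage times percent C. All 3030488 shared cytosines on the autosomes and X were tested with Fisher's exact test, two-sided. Gene regions (the gene with 3 kb on each side) and partly methylated stretches with at least 5 cytosines or CpG positions were tested with a Cochran-Mantel-Haenszel test, each cytosine a stratum. Any CpG outside the 20% to 80% bounds ended a stretch. P-values were adjusted by Benjamini-Hochberg over all features of a kind, and a level is the mean over cytosines, weighted equally. Both tests compare 2 libraries, not the conditions, and reads spanning several cytosines are counted at each. Wilson and Newcombe intervals treat such repeated counts as separate reads and are too narrow. The labels name no molecular identifiers, so these intervals cover at most counting error. A scaled test divided the chi-square by the spread between cytosines. Strand, coverage, flank, thresholds, weighting, test and stretch bounds were varied. Minimums of 150 bp between CpG positions and of 20 CpG positions per stretch were added after seeing the data.

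The members and gene lists were chosen with earlier results of these data known. The rule for names took all 6 members with each of their stretches, up to 3 called cytosines each by size, or else the best covered one of the longest stretch, and in the lists the host, X-linked and called genes. Starts of list genes were read as promoter windows extended by 500 bp. Scripts used python 3.11.15, numpy 2.4.6, pandas 2.3.3, scipy 1.17.1, numba 0.67.0 and matplotlib 3.10.9, and the tests were checked on simulated data.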

Additional observations from a re-analysis of the deposited data

How the results depend on the processing

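No paired analysis was possible because each group had 1 library, so leaving out a library was not possible either. Counts and differences were recomputed, giving 351 alternative values. Of the 265 differences among them, 231 kept their direction and side of the threshold. Some of these could not change, such as the stretch differences under another flank. The count of 1 gene region called lower became 2 with 30 reads as minimum or reverse cytosines alone, 3 with a 5-point minimum, and 0 with forward cytosines, a 5 kb flank or a 15-point minimum. The Nnat region difference was -8.20 points with forward cytosines, -6.40 with the 5 kb flank and, still -12.6, under 15 points, and was then not called. The Zrsr1 region was called at -10.4 points with 30 reads and at -8.97 under the 5-point minimum, and the Nap1l5 region at -12.0 with reverse cytosines and at -7.66 under 5 points. The Inpp5f region changed sign, to 0.266 points, from CpG positions 150 bp apart. The 16 cytosines called lower became 7 with forward and 9 with reverse cytosines, 10 with reads thinned to equal depth, 26 at both 20 and 10 points, and 17 with 20 or 30 reads as minimum. The 1 called higher became 0 with reverse cytosines or thinned reads and 2 at 10 points. The 3 stretches called lower became 5 under 5 points and 0 under 15 points, 4 with thinned reads, pooled reads or bounds of 10% and 90%, and 2 with bounds of 30% and 70% or at least 20 CpG positions. The 1 stretch called higher became 0 with reverse cytosines, thinned reads, 15 points, the scaled test, bounds of 30% and 70%, CpG positions 150 bp apart or at least 20 CpG positions. Stretches that changed sign were none of those called: Inpp5f to 3.18 (forward), 1.74 (thinned), 0.412 (pooled reads) and 3.90 points (150 bp apart), Peg13 from 4182 bp to 1.45 (forward), and, from positions 150 bp apart, Zrsr1 from -142 bp to 0.610 and Peg13 from 4520 bp to 3.16 points. Some of these settings use fewer cytosines or reads, and others another threshold, weighting or test. The spacing of 150 bp leaves few CpG positions in a short stretch. Why the values changed was not tested. With a median of 36 I-PpoI reads at Nnat, a single cytosine there cannot show a difference of a few points.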
